A study of Mus musculus with 25 samples.

Results

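The 43 genes described here are mitotic genes, a list of gene symbols that was drawn up with earlier results of these data known: regulators of entry into mitosis, mitotic kinases, kinetochore and checkpoint proteins, regulators of mitotic exit, spindle proteins and proteins of cytokinesis. All 43 were found among the 43693 genes of the sorted-cell table and, by the same identifiers, in the tables of tissue and of both culture sets. All of them passed the filter on low counts in every comparison, so none is left out of the counts below. By role, 9 act at entry, 5 are kinases or partners in the passenger complex, 9 sit at the kinetochore or its checkpoint, 2 act at exit, 12 on the spindle and 6 in cytokinesis.

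RNA was sequenced in 25 mouse libraries. Sorted libraries came from spinal cords of GFAP-Cre-/+:R26-tdT-/+ mice, by fluorescence-activated sorting of tdTomato-positive cells after digestion and removal of myelin. Such cells, or their ancestors, once had a Cre recombinase named for the GFAP promoter, so the reporter follows lineage and not present expression. The sorted groups were sham (laminectomy at T9, taken after 7 days, 3 libraries) and a moderate contusion at T9 with 60 kdyn, taken at 7 days (3 libraries), 1 month (3) or 3 months (2), each library a pool of 3 mice. No sham was set beside the later times, so the 1-month and 3-month groups differ from sham also in age and time after surgery. Tissue libraries came from the lesion epicentre of C57BL/6 mice at 3 months (3) and 1 month (3) after the same injury, again as pools of 3 mice, with no uninjured tissue. Cultures of C57BL/6 brain astrocytes from pups of postnatal day 4 to 7 were transduced with Zeb2os knockdown or control lentivirus (2 libraries each) or with Zeb2 knockdown or control lentivirus (2 each), and selected with puromycin at 1 µg/ml from 24 hr in the Zeb2os set and from 48 hr in the Zeb2 set. Selection lasted 3 days in the Zeb2 set, while for the Zeb2os set its length differs between fields of the labels. The labels give the knockdown genotypes as Zeb2os -/- and Zeb2 -/- and the controls as WT, while the protocols describe lentiviral knockdown. Nothing says that the 2 libraries of a culture group were separate cultures, and their p-values then reflect library-to-library spread alone, which may be technical.

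Total counts were 15.7 to 50.2 M in sorted libraries, 15.4 to 27.1 M in tissue, 45.6 to 158.1 M in the Zeb2os set and 29 to 65.4 M in the Zeb2 set. The labelled cell type was checked against markers. The 14 astrocyte markers summed to 1580 to 1650 CPM (counts scaled to a common library total) in sorted cells at 1 month, against 15000 to 16400 CPM in tissue, while the 14 markers of oligodendrocyte precursors summed to 15900 to 16400 CPM in sorted cells, against 1070 to 1090 CPM in tissue. The libraries labelled as astrocytes are therefore called sorted cells below. Zeb2, the target of its knockdown, had 23.2 and 16.1 CPM in Zeb2 knockdown libraries, against 147 and 134 CPM in control (log2 change -2.83 ± 0.33, adjusted p = 0.999 by edgeR, which called no gene in this set). Zeb2os had 3.14 and 4.32 CPM in the libraries labelled Zeb2os knockdown, against 5.82 and 3.8 CPM in their controls, which overlap, so these libraries are named by their labels. In the cultures, labelled as astrocytes, the 14 astrocyte markers summed to 683 to 705 CPM in the libraries labelled Zeb2os knockdown, against 1330 to 1410 CPM in their controls, and to 1220 to 1310 CPM in Zeb2 knockdown, against 902 to 1410 CPM in control. The 14 fibroblast and mural markers summed to 22300 to 23400 CPM in the libraries labelled Zeb2os knockdown, against 19800 to 20500 CPM in their controls, and to 15200 to 16000 CPM in Zeb2 knockdown, against 17000 to 30200 CPM in control. Fibroblast and mural markers thus exceeded astrocyte markers in every culture library, and these libraries are called cultures below.

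Mitosis is driven by cyclin-dependent kinase 1 with its A and B cyclins. The transcription factor Foxm1, together with the MuvB complex, switches on many genes of this phase, and the anaphase-promoting complex with its activator Cdc20 ends it by marking cyclins for destruction. In the uninjured adult cord most astrocytes do not divide, oligodendrocyte precursors go on dividing slowly, and after a contusion precursors, reactive astrocytes, microglia and cells of the vessel wall all proliferate. RNA of these genes is low in resting cells and accumulates before division, so it is widely read as a measure of cycling cells.

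Many mitotic genes share promoter elements in other cell systems: a cell cycle genes homology region (CHR), bound by MuvB complexes, and CCAAT boxes, bound by NF-Y. The stretches below show how these letters lie in 9 of the genes, from 75 bases before to 50 after the start that RefSeq gives, 5′ to 3′ on the gene's strand, with matches in capitals. Plk1, Cdk1, Ccnb2, Cdca3, Cdc20 and Kif11 are shown because they hold both elements close to the start, Spag5 and Anln because their RNA differed from that of most others, and Nusap1 because its window held neither.
Plk1: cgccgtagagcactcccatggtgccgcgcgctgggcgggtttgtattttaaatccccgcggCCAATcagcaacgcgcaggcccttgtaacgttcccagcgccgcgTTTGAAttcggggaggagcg
Cdk1: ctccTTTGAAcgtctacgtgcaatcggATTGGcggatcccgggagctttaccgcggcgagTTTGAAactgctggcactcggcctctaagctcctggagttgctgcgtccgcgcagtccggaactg
Ccnb2: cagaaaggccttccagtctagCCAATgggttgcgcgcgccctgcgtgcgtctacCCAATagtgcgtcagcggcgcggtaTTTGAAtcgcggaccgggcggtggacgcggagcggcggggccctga
Cdca3: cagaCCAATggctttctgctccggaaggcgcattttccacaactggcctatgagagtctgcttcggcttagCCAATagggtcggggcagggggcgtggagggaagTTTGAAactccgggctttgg
Cdc20: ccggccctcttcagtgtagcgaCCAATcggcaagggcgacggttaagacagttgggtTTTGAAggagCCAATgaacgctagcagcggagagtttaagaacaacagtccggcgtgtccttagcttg
Kif11: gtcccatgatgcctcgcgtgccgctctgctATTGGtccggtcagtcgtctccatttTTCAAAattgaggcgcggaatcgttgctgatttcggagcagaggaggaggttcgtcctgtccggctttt
Spag5: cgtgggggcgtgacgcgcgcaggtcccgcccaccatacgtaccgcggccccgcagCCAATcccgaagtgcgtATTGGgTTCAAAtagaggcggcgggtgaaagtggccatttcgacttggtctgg
Anln: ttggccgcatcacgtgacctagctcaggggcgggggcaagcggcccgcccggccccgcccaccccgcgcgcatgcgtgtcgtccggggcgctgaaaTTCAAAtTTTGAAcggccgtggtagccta
Nusap1: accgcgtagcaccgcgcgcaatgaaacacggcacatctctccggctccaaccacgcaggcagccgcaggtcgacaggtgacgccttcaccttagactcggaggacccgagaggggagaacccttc
The sequences are RefSeq's, on build GRCm38.p6: Plk1 at chr7:122159360-122159484 (plus strand), Cdk1 at chr10:69352863-69352987 (minus strand), Ccnb2 at chr9:70421505-70421629 (minus strand), Cdca3 at chr6:124830101-124830225 (plus strand), Cdc20 at chr4:118437294-118437418 (minus strand), Kif11 at chr19:37376307-37376431 (plus strand), Spag5 at chr11:78301516-78301640 (plus strand), Anln at chr9:22389157-22389281 (minus strand) and Nusap1 at chr2:119618223-119618347 (plus strand). Each stretch but that of Cdca3 also holds the start of the gene in the GENCODE annotation, from which gene coordinates are given below. For Cdca3 that annotation starts the gene upstream of the stretch, at position 124829547. The CHR was searched as TTTGAA or TTCGAA and the CCAAT box as CCAAT, on both strands, so TTCAAA and ATTGG are matches too.

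Over the whole windows of 300 bases (250 before and 50 after the start), which were found for 37 of the 43 genes, 29 (78.4%) held a CHR, 28 (75.7%) a CCAAT box and 25 (67.6%) both. Among all 27025 genes with such a window, 21.7% held a CHR, 41.1% a CCAAT box and 8.61% both. A single pair of CHR and CCAAT matches overlapped. No match to either was found for Birc5, Knstrn, Melk, Nuf2 and Nusap1, which says only that these letters are not in the window. Spag5 holds both elements and Anln a CHR on each strand.

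**Figure D1:**
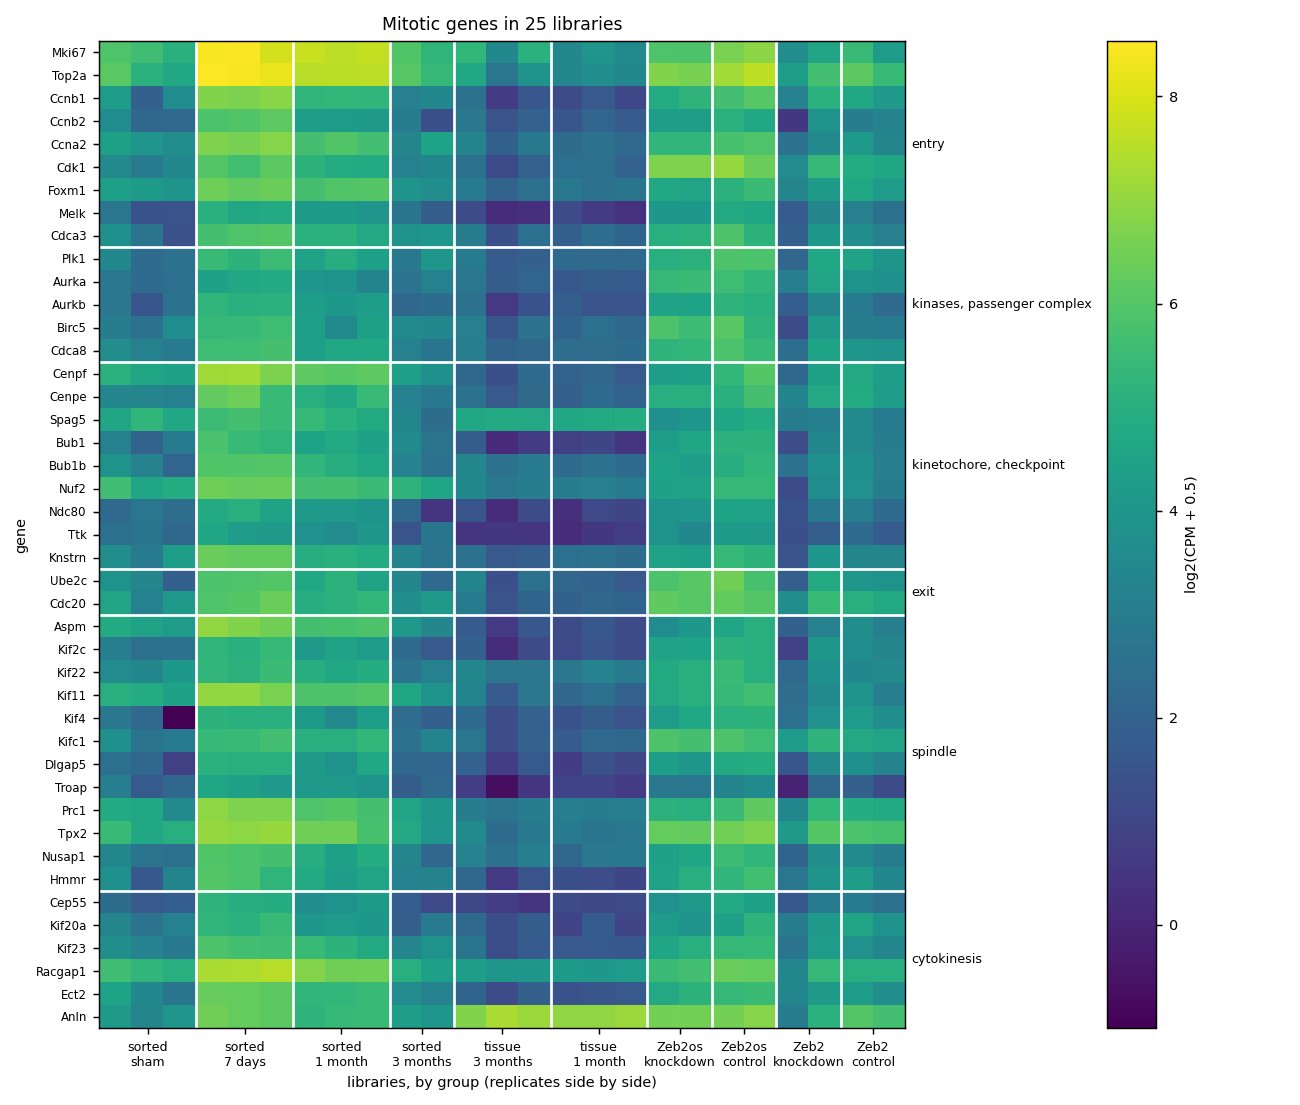
Level of each of the 43 mitotic genes (rows, grouped by role) in each of the 25 libraries (columns, grouped by sample kind and time), as log2(CPM + 0.5). Among sorted libraries levels are highest at 7 days, lower at 1 month, and lowest in sham and at 3 months. In tissue they are low, with Anln above the rest in every library.

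Mitotic genes rose together in sorted cells at 7 days after injury. Of the 43, 42 were called higher than in sham and none lower (edgeR quasi-likelihood test, Benjamini-Hochberg adjusted p under 0.05 over all 24286 genes tested), where 9.87% of all genes tested were called higher and 8.41% lower. The median log2 change of the 43 was 2.53, a 5.78-fold rise, beside a median of -0.06 over all genes. Summed over the 43, libraries held 3430, 3270 and 3100 CPM at 7 days, against 791, 528 and 499 CPM in sham. For all 43 genes every 7-day library lay above every sham library, as for 18.9% of all genes. A larger share of dividing cells and more mitotic RNA per cell cannot be told apart in bulk libraries.

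Mki67, which encodes the Ki-67 protein that coats mitotic chromosomes and is the usual marker of proliferation, had 58.9, 48.2 and 32.6 CPM in sham, 348, 359 and 234 CPM at 7 days, 213, 194 and 203 CPM at 1 month and 61.8 and 37.5 CPM at 3 months. Top2a, the topoisomerase that untangles sister chromosomes, had 67.6, 33.4 and 26 CPM in sham, 371, 350 and 308 CPM at 7 days, 182, 187 and 194 CPM at 1 month and 65.7 and 40.7 CPM at 3 months. In both genes the 7-day libraries stand highest, the 1-month libraries lie between, and the 3-month libraries overlap sham. Their log2 changes at 7 days were 2.75 ± 0.25 (SE, adjusted p = 2.9e-06 by edgeR) for Mki67 and 3.02 ± 0.30 for Top2a.

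Of the genes of mitotic entry, all 9 rose at 7 days, with a median log2 change of 3.00. Ccnb1, the B-type cyclin that activates Cdk1, had the largest change of the 43, 3.26 ± 0.41 (adjusted p = 5.2e-05 by edgeR), with 18.2, 3.32 and 12 CPM in sham, 107, 99.9 and 114 CPM at 7 days, 37.2, 39.5 and 38.4 CPM at 1 month and 8.3 and 10.5 CPM at 3 months. Its sham values spread widely, with 3.32 CPM in replicate 2 and 18.2 CPM in replicate 1. The other B-type cyclin of the list, Ccnb2, changed by 3.23 ± 0.45. Ccna2, the A-type cyclin of S phase and early mitosis, had 21.1, 15.1 and 12.7 CPM in sham, 103, 94.8 and 111 CPM at 7 days, 52.3, 61.2 and 50.5 CPM at 1 month and 9.65 and 22.9 CPM at 3 months. Cdk1, the kinase itself, had 10.6, 6.95 and 10.4 CPM in sham, 62.3, 50 and 69.2 CPM at 7 days, 35.8, 28.4 and 28.3 CPM at 1 month and 8.57 and 10 CPM at 3 months, and changed by 2.70 ± 0.23 at 7 days. Foxm1, the transcription factor of this programme, had 20.4, 17.8 and 14.7 CPM in sham, 86.8, 75.2 and 84 CPM at 7 days, 52.9, 61.4 and 62.4 CPM at 1 month and 14.8 and 12.2 CPM at 3 months. Its replicates lay close together and its change of 2.21 ± 0.18 had the smallest error of the 43 (adjusted p = 1.6e-06 by edgeR).

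All 5 genes of mitotic kinases and the chromosomal passenger complex rose at 7 days (median 2.41). Plk1, the polo-like kinase of centrosomes and kinetochores, had 10.5, 4.56 and 5.51 CPM in sham, 42.1, 35.1 and 46.5 CPM at 7 days, 22.2, 30.4 and 20.4 CPM at 1 month and 6.83 and 16.2 CPM at 3 months. Aurka, the Aurora kinase of centrosomes, had 6.49, 4.5 and 5.15 CPM in sham, 21.6, 26 and 27.7 CPM at 7 days, 15.6, 14 and 9.3 CPM at 1 month and 5.7 and 8.52 CPM at 3 months. For these kinases 3-month replicate 3 lay above replicate 1 and above every sham library. Aurkb, the catalytic subunit of the passenger complex, had 6.33, 2.45 and 5.39 CPM in sham, 36.9, 32.3 and 34 CPM at 7 days, 19.7, 16.5 and 19.9 CPM at 1 month and 4.07 and 4.62 CPM at 3 months. Birc5, which encodes survivin, the subunit that brings the complex to chromatin, had 7.77, 5.37 and 12 CPM in sham, 40.1, 41.2 and 47.8 CPM at 7 days, 20.6, 11.3 and 20.7 CPM at 1 month and 11 and 10.1 CPM at 3 months. Cdca8, the borealin subunit, changed by 2.41 ± 0.25 at 7 days. The 7-day and sham values of these genes did not overlap.

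Among 9 kinetochore and checkpoint genes 8 rose at 7 days (median 2.40), and Spag5 was not called. Bub1b, a subunit of the checkpoint complex that restrains Cdc20, had 14, 8.79 and 3.81 CPM in sham, 61.9, 61.9 and 63.4 CPM at 7 days, 38.4, 30.5 and 25.9 CPM at 1 month and 8.99 and 5.48 CPM at 3 months. Ttk, the kinase that starts checkpoint signalling, had 5.05, 6.01 and 4 CPM in sham, 24.5, 18.8 and 17.2 CPM at 7 days, 13.5, 11.6 and 16.2 CPM at 1 month and 2.27 and 6.1 CPM at 3 months. Ndc80, which attaches kinetochores to microtubules, had 4.34, 6.21 and 4.84 CPM in sham, 27.8, 31.2 and 22.3 CPM at 7 days, 16.9, 17.2 and 14.7 CPM at 1 month and 4.01 and 0.857 CPM at 3 months. Cenpf, a kinetochore protein of late G2 and mitosis, had 33.5, 24.2 and 21.6 CPM in sham, 146, 148 and 99.4 CPM at 7 days, 71.9, 65.6 and 71.7 CPM at 1 month and 20.2 and 13.4 CPM at 3 months. In Bub1b the 3-month libraries lay within the sham range, in Ndc80 and Cenpf below it, and in Ttk on either side of it. Spag5, or astrin, which guards spindle poles and kinetochore attachment, had 24.1, 38.7 and 25.8 CPM in sham, 46.4, 53 and 42.1 CPM at 7 days, 41.9, 33.3 and 27 CPM at 1 month and 9.82 and 4.62 CPM at 3 months. The highest sham library, at 38.7 CPM, was close to the lowest 7-day library, at 42.1 CPM, and the log2 change was 0.67 ± 0.27 (adjusted p = 0.11 by edgeR). Spag5 lies on chromosome 11, 78301529 to 78322457, plus strand (GRCm38). Nuf2, the partner of Ndc80, rose by 1.27 ± 0.23, the smallest of the 42 calls, with 48.5, 24.8 and 29.1 CPM in sham, 86.1, 78.4 and 82.2 CPM at 7 days, 50.6, 51.9 and 44.7 CPM at 1 month and 35.9 and 24.8 CPM at 3 months.

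Both genes of mitotic exit rose at 7 days. Cdc20, the activator of the anaphase-promoting complex, had 23, 8.69 and 17.6 CPM in sham, 58.9, 63.7 and 84.7 CPM at 7 days, 30.4, 34.5 and 39.3 CPM at 1 month and 12.6 and 17.5 CPM at 3 months. Ube2c, the ubiquitin-conjugating enzyme of that complex, had 14.2, 9.7 and 3.27 CPM in sham, 56.1, 59.1 and 62.2 CPM at 7 days, 24.9, 34.8 and 21.9 CPM at 1 month and 9.57 and 4.24 CPM at 3 months, with 22.8% of its exonic bases shared with Tnnc2 on the opposite strand. Whether reads were counted by strand is not stated in the sources used here, so the values of Ube2c, Kif20a (29.3% shared with Cdc23), Kif4 (15.1% with Pdzd11), Ccna2 (12.5% with Exosc9) and Prc1 (11.1% with Rccd1) are uncertain.

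All 12 spindle genes rose at 7 days (median 2.35). Tpx2, which activates Aurora A on spindle microtubules, had 43.4, 25.3 and 31.4 CPM in sham, 131, 119 and 135 CPM at 7 days, 88.7, 88.9 and 54.2 CPM at 1 month and 26.3 and 15.4 CPM at 3 months. Kif11, the motor that pushes spindle poles apart, had 31.6, 29 and 21.2 CPM in sham, 127, 126 and 98.9 CPM at 7 days, 58.4, 58.8 and 62.9 CPM at 1 month and 24.3 and 14 CPM at 3 months. Prc1, which bundles midzone microtubules, had 27.9, 25.7 and 11.1 CPM in sham, 121, 104 and 102 CPM at 7 days, 60.4, 64 and 51.7 CPM at 1 month and 23.5 and 15.9 CPM at 3 months. Over these 3 genes the lowest 7-day value was 98.9 CPM and the highest 3-month value 26.3 CPM. Kif4, a chromosome-bound motor, had no count in sham replicate 3, and its change of 3.19 ± 0.73 had the widest error of the 43.

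All 6 genes of cytokinesis rose at 7 days (median 2.48). Racgap1, a subunit of the centralspindlin complex that places the cleavage furrow, had 48.3, 38.3 and 30.7 CPM in sham, 162, 163 and 182 CPM at 7 days, 108, 88.7 and 90.4 CPM at 1 month and 31.4 and 20.5 CPM at 3 months. Cep55, which recruits the machinery that cuts the midbody, had 4.74, 2.65 and 3.09 CPM in sham, 36.1, 30.4 and 29.5 CPM at 7 days, 12.2, 14.3 and 17.8 CPM at 1 month and 3.07 and 1.67 CPM at 3 months, a change of 3.19 ± 0.33 at 7 days. Anln, or anillin, the scaffold of the contractile ring, had 16.8, 9.66 and 15.3 CPM in sham, 87, 77.2 and 70 CPM at 7 days, 36.4, 41.8 and 42.1 CPM at 1 month and 20.1 and 15.5 CPM at 3 months. Changes of the 6 at 7 days ran from 2.11 ± 0.20 for Racgap1 to that of Cep55.

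**Figure D2:**
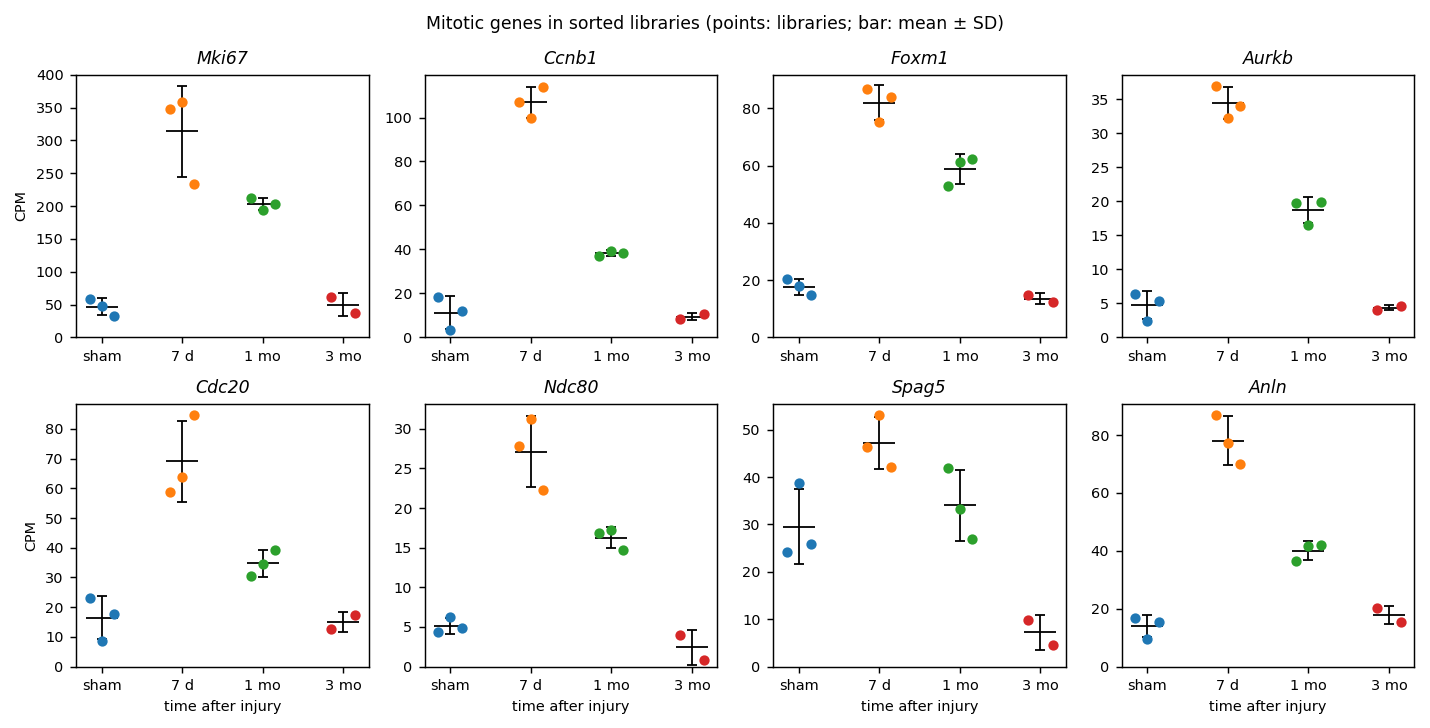
Level in CPM (vertical axis, from 0) of 8 mitotic genes in each sorted library, by time after injury (horizontal axis). Points are libraries and bars the mean ± SD, with 3 libraries per group and 2 at 3 months. Of the genes shown, Spag5 has a sham level close to its 7-day level and a 3-month level below sham.

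Compared per kilobase of exon, as mean CPM per kb of annotated exonic length at 7 days, the order of levels ran from Ccnb2 (41.3), Top2a (38.1), Cdc20 (37.0) and Mki67 (31.2) at the top to Dlgap5 (4.67), Ndc80 (4.17) and Ttk (4.1) at the bottom. In sham the top genes were Cdc20 (8.8 CPM per kb), Tpx2 (7.14) and Racgap1 (5.52). In 38 of the 42 pairs of neighbours at 7 days, and 41 of 42 in sham, the gap was smaller than the larger SD of the pair.

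At 1 month after injury mitotic genes were still raised. Of the 43, 40 were called higher than in sham and none lower, where 6.23% of all genes tested were called higher and 5.83% lower. Their median log2 change was 1.64, a 3.13-fold rise, beside -0.02 over all genes. Libraries held 1820, 1770 and 1750 CPM of the 43 in sum, between the 7-day and sham values and with little spread. The largest change was that of Dlgap5, a microtubule-binding protein of the spindle, at 2.36 ± 0.39 (adjusted p = 0.00088 by edgeR). The genes not called were Spag5 (0.21 ± 0.27, adjusted p = 0.718 by edgeR), Nuf2 (0.52 ± 0.23, adjusted p = 0.169 by edgeR) and Kif4 (2.1 ± 0.71, adjusted p = 0.0679 by edgeR).

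Set against 7 days, every one of the 43 genes had a lower level at 1 month, and in every one the 3 libraries of 1 month lay below the 3 of 7 days, as for 17% of all genes. Of these, 13 were called lower and none higher, where 1.09% of all genes tested were called lower and 1.52% higher, and 34 were lower at an unadjusted p under 0.05, against 8.24% of all genes. In the median the log2 change was -0.91 (0.53-fold). The genes called were Ccnb1, Ccnb2 and Cdk1 among entry genes, Birc5 and Cdca8 of the passenger complex, Cenpf, Cenpe and Knstrn at the kinetochore, Aspm and Kif11 on the spindle, and Kif20a, Racgap1 and Anln in cytokinesis. Ccnb2 changed most, by -1.76 ± 0.43 (adjusted p = 0.0396 by edgeR), and the smallest difference was that of Troap, a spindle-associated protein, at -0.37 ± 0.35 (adjusted p = 0.718 by edgeR). The count moved with the fit. A fit of these groups alone called 38, where 3560 of all genes were called, against 633 in the main fit. Without 1-month replicate 1, 2 or 3 or 7-day replicate 1 or 2, 0 were called, where 122 to 201 of all genes were. Without 7-day replicate 3, 4 were called, where 218 of all genes were.

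At 3 months a single gene of the 43 was called different from sham. Libraries held 581 and 464 CPM of the 43 in sum, against 791, 528 and 499 CPM in sham, and the median log2 change against sham was -0.25, beside -0.10 over all genes. This gene was Spag5, lower than in sham with a log2 change of -2.02 ± 0.33 (adjusted p = 0.00079 by edgeR), where 4.93% of all genes tested were called lower and 6.78% higher. Spag5 had 9.82 and 4.62 CPM at 3 months, against 24.1, 38.7 and 25.8 CPM in sham, with no overlap. The highest of the others was Cdca3, a trigger of entry through degradation of Wee1, at 1.06 ± 0.45 (adjusted p = 0.151 by edgeR). Standard errors of these changes ran from 0.20 for Foxm1 to 0.78 for Kif4. Sham replicate 1 had the highest summed level of the sham libraries. Without it 3 genes were called higher and 1 lower, where 3540 of all genes were called, against 2844 with every library. Without sham replicate 2 or sham replicate 3, 3 were called lower, where 2819 and 3493 of all genes were called. These counts are not read as changes of the mitotic genes. Without 3-month replicate 1, which leaves 1 library at that time, the median log2 change was -0.31.

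Against 7 days all 43 genes had fallen at 3 months, where 3.52% of all genes tested were called lower. The median change was -2.69 on the log2 scale (0.16-fold), from -3.74 ± 0.40 for Cep55 to -1.44 ± 0.27 for Nuf2. At 3 months the members stood at a median of 15.5% of their 7-day mean CPM, from 7.4% for Cep55 to 36.9% for Nuf2. At 1 month the same share had a median of 53.0%, from 29.5% for Ccnb2 to 77.3% for Troap.

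Between 1 month and 3 months 28 of the 43 genes fell and none rose, where 0.284% of all genes tested were called lower and 0.103% higher. In this comparison 94 genes (0.387%) were called in either direction, the 28 mitotic genes made up 29.8% of them, and 20 of the 50 genes with the lowest p were members. Over the 43 the median log2 change was -1.91 (0.27-fold). For all 43 genes the 2 libraries of 3 months lay below the 3 of 1 month, as for 16.6% of all genes, and all 43 were lower at an unadjusted p under 0.05, against 6.32%. Ndc80 changed most, with 4.01 and 0.857 CPM at 3 months, against 16.9, 17.2 and 14.7 CPM at 1 month, a log2 change of -2.70 ± 0.48 (adjusted p = 0.0279 by edgeR). Foxm1 had the lowest p of the 43, at -2.12 ± 0.22 (adjusted p = 0.00124 by edgeR). The 15 genes not called were Ccnb1, Ccnb2, Melk and Cdca3 of entry, Bub1 and Ttk of the checkpoint, Kif4 and Hmmr on the spindle, Anln, both exit genes, Plk1 (-1.09 ± 0.40), Aurka (-0.87 ± 0.33), Birc5 (-0.73 ± 0.34) and Nuf2 (-0.69 ± 0.26, the smallest). The count was 8, 11 or 12 without 1-month replicate 1, 2 or 3, with medians of -1.92 to -1.86. In these fits 13, 15 and 21 of all genes were called, against 94 with every library. Leaving out a 3-month replicate leaves 1 library at that time, so only the median log2 change is given. It was -2.12 without replicate 1 and -1.76 without replicate 3.

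**Figure D3:**
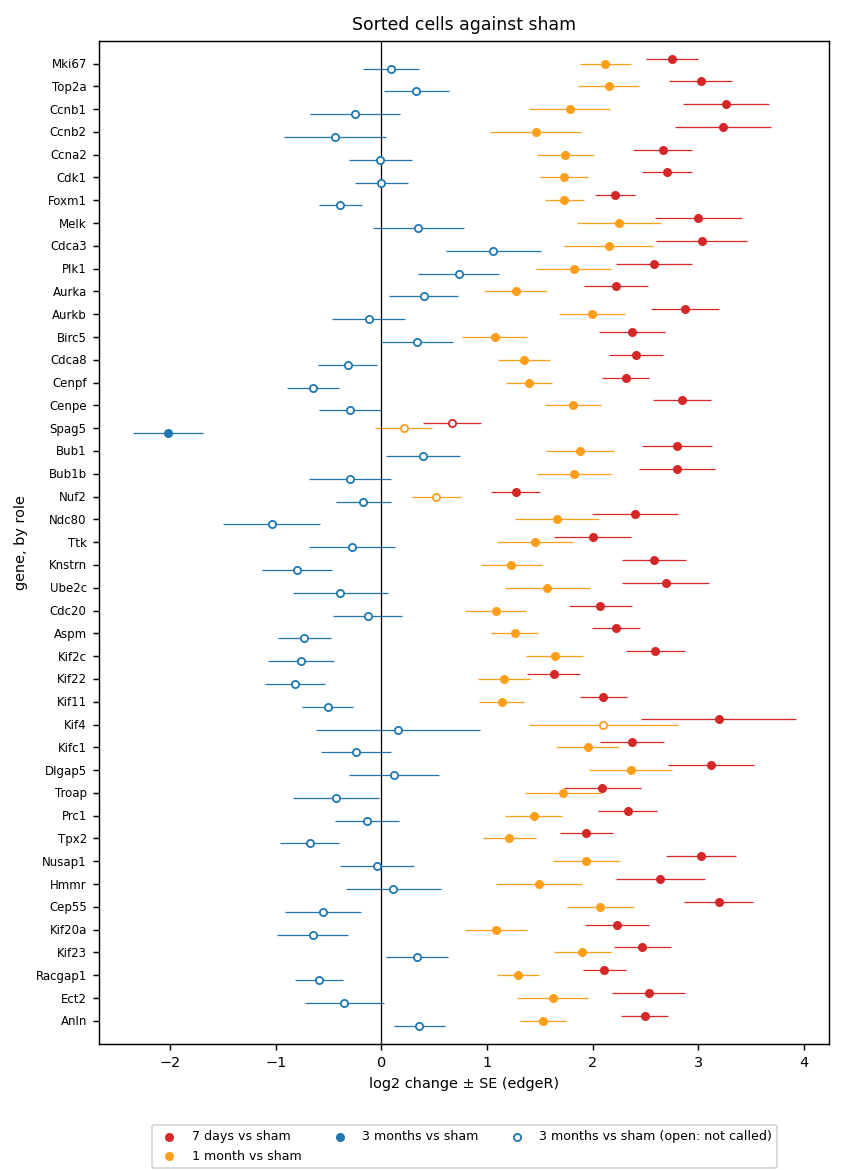
Log2 change ± SE (edgeR, horizontal axis) of each of the 43 mitotic genes (vertical axis, by role) in sorted cells at 7 days, 1 month and 3 months, each against sham. Filled points passed adjusted p under 0.05 and open points did not. The 7-day and 1-month points lie right of 0 and the 3-month points around it, with Spag5 left of 0.

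The other genes of cell division were read from lists that hold none of the 43. Of 38 other kinetochore and cohesion genes, 29 rose and 1 fell at 7 days, 16 rose and 1 fell at 1 month, and 1 rose at 3 months, each against sham. Those with the largest changes at 7 days were Spc25, a subunit of the Ndc80 complex (3.00 ± 0.38), Cenpa, the histone of centromeres (2.92 ± 0.26), and Ska3, of the complex that tracks microtubule ends (2.83 ± 0.38). Of 44 other spindle, condensin and kinase genes, 35 rose at 7 days, 27 at 1 month and 1 at 3 months, where 1 also fell. Psrc1, a spindle protein, changed by 3.31 ± 0.44 at 7 days, Depdc1a by 3.20 ± 0.38 and Arhgap11a by 3.05 ± 0.30. Between 1 month and 3 months 11 of these 44 fell, as did 2 of the 38. The median changes of the 2 lists at 7 days were 1.96 and 2.06.

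DNA replication genes moved less: 24 of 34 rose at 7 days (median 1.20), 19 at 1 month (median 0.93) and 2 at 3 months, against sham. Rrm2, the ribonucleotide reductase subunit of S phase, changed by 2.35 ± 0.21 at 7 days, Tk1, the thymidine kinase, by 2.14 ± 0.39, and Chaf1b, a chromatin assembly factor subunit, by 1.84 ± 0.38. Subunits of the anaphase-promoting complex, whose activator Cdc20 is a member, had 3 rises among 15 at 7 days and none at 1 month, with a median of 0.21 at 7 days. These were Anapc15 (1.60 ± 0.42), Cdc27 (0.59 ± 0.17) and Cdc16 (0.47 ± 0.14). Of 16 E2F, MYBL2 and DREAM complex factors, 6 rose at 7 days and 6 at 1 month. The largest changes at 7 days were in E2f8 (2.43 ± 0.31), E2f7 (1.95 ± 0.35) and E2f1 (1.79 ± 0.35). Among 22 G1 cyclins and cell cycle inhibitors, 12 rose and 3 fell at 7 days. Cdkn2a, which encodes an inhibitor of the G1 kinases among its products, changed by 3.69 ± 1.01. Cdkn1c, another inhibitor, changed by 1.79 ± 0.39, while the antiproliferative gene Btg2 changed by -2.32 ± 0.39.

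Markers of other cell types moved in the same libraries. Of 20 microglia and macrophage markers, 17 rose at 7 days, 16 at 1 month and 18 at 3 months, and their summed level was 673 to 2890 CPM in sham, 7250 to 10600 CPM at 7 days, 6250 to 9930 CPM at 1 month and 15600 to 20200 CPM at 3 months. This list was highest at 3 months, when the mitotic genes were lowest of the injured times. Of 15 endothelial markers, 15, 7 and 13 rose at 7 days, 1 month and 3 months, with sums of 95.8 to 304 CPM in sham, 758 to 882 CPM at 7 days, 425 to 446 CPM at 1 month and 691 to 954 CPM at 3 months. Fibroblast and mural markers (8, 7 and 6 of 14 rose) summed to 209 to 646 CPM in sham, 4330 to 4450 CPM at 7 days, 2450 to 2650 CPM at 1 month and 2100 to 2130 CPM at 3 months. The summed level of this list was highest at 7 days, when the mitotic genes were highest too. Most astrocyte markers fell (12, 12 and 11 of 14), with sums of 5400 to 7110 CPM in sham, 2580 to 3080 CPM at 7 days, 1580 to 1650 CPM at 1 month and 1370 to 1520 CPM at 3 months. At 7 days 1 of the 14, Gfap, was called higher (2.4 ± 0.245, adjusted p = 9.4e-06 by edgeR). Gfap had 354, 166 and 202 CPM in sham, against 1240, 1440 and 1140 CPM at 7 days. The 14 precursor markers summed to 12400 to 14800 CPM in sham, 13200 to 14900 CPM at 7 days, 15900 to 16400 CPM at 1 month and 9940 to 11900 CPM at 3 months. Ependymal markers fell (11, 11 and 7 of 12), with sums of 2520 to 5590 CPM in sham, 1250 to 1470 CPM at 7 days, 1360 to 1540 CPM at 1 month and 1260 to 2430 CPM at 3 months. Of 18 immediate early genes, which mark handling and stress, 13 fell at 7 days against sham, and 2 fell and 1 rose at 1 month and likewise at 3 months. Their sums were 13900 to 29300 CPM in sham, 7910 to 8380 CPM at 7 days, 17100 to 20200 CPM at 1 month and 21900 to 24100 CPM at 3 months. Against 7 days, 8 of the 18 were called higher at 1 month and 12 at 3 months, times at which the mitotic genes were lower than at 7 days. None of the markers of these 6 cell types was at 0 in a whole group of sorted libraries. The part of each cell type, and of handling, in the mitotic values was not tested.

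Across the 11 sorted libraries the members followed each other closely. The Pearson r of a member's log2 CPM with the mean of the others was highest for Cdca8 and Cep55 (both 0.989) and lowest for Spag5 (0.673), followed by Kif4 (0.87). Among 13763 genes with a mean of at least 5 CPM, members included, 6 genes outside the list were most like the mean of the members. They were Tmpo (r = 0.983), Spc25 (0.980), Spidr (0.979), Ckap2l (0.978), Kif14 (0.977) and Hs2st1 (0.977). These values describe 11 libraries in 4 groups.

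In tissue of the lesion epicentre no mitotic gene was called between 3 months and 1 month, where 6.69% of all genes tested were called higher and 8.01% lower (edgeR). At an unadjusted p under 0.05, 2 were higher and none lower, against 15.2% and 16.2% of all genes, and DESeq2 called 0 with 3 at an unadjusted p under 0.05. In the median the change was 0.19 (log2). Mki67 had 39.5, 10.4 and 33.9 CPM at 3 months, against 10.3, 15.1 and 11.4 CPM at 1 month, the largest log2 difference at 1.19 ± 0.45 (adjusted p = 0.115 by edgeR). Replicates 1 and 3 of 3 months were above all 1-month libraries and replicate 2 was not. Top2a had 25, 6.16 and 14.6 CPM at 3 months, against 10.3, 12.4 and 9.84 CPM at 1 month, and Ccnb1 had 5.42, 1.09 and 2.5 CPM at 3 months, against 1.85, 2.7 and 1.59 CPM at 1 month. In both, replicate 1 of 3 months lay above the 1-month range and replicate 2 below it, and replicate 3 lay above it in Top2a and within it in Ccnb1. The lowest difference was that of Troap (-0.81 ± 0.56). Without 3-month replicate 1, 3 genes were called lower, where 5980 of all genes were called, against 2889 with every library. Without 3-month replicate 2, 4 were called higher, where 1877 of all genes were called. These counts are not read as a change of the mitotic genes. The median log2 change of the 43 was -0.13 in the first fit and 0.55 in the second, so its sign rests on single libraries. In the same libraries microglia and macrophage markers fell (17 of 20), with sums of 2960 to 4140 CPM at 3 months, against 7180 to 9650 CPM at 1 month.

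Anln led the mitotic genes in tissue. It had 106, 159 and 136 CPM at 3 months, against 125, 123 and 137 CPM at 1 month, more than any other member, and per kilobase of exon it led with 14.8 CPM per kb at 3 months and 14.1 at 1 month. Spag5 had 25.9, 27.6 and 26.8 CPM at 3 months, against 25.7, 26.9 and 29.2 CPM at 1 month, and was next per kilobase of exon, with 4.76 CPM per kb at 3 months and 4.85 at 1 month. In CPM it was also next at 1 month, while at 3 months Mki67 lay above it in replicates 1 and 3. Together they made up a large part of the summed level of the 43. With them the sum was 441, 313 and 375 CPM at 3 months, against 318, 342 and 334 CPM at 1 month, and without them 309, 126 and 213 CPM, against 167, 193 and 168 CPM. Anln is also transcribed in myelinating oligodendrocytes, and markers of oligodendrocytes (15 genes) summed to 19700 to 24400 CPM in tissue at 3 months and 26500 to 29000 CPM at 1 month, against 526 to 2150 CPM over all sorted libraries. How much of the Anln and Spag5 counts these cells contributed was not tested.

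At 1 month sorted cells held far more mitotic RNA than tissue. Of the 43 genes, 41 were called higher in sorted cells and 1 lower, where 23.3% of all genes tested were called higher and 28.2% lower. The median log2 difference was 3.06 (8.34-fold). Aspm, a spindle pole protein, differed most, with 53, 53.1 and 58.4 CPM in sorted cells, against 1.79, 2.53 and 1.76 CPM in tissue, a log2 difference of 4.66 ± 0.35 (adjusted p = 7e-07 by edgeR). Mki67 had 213, 194 and 203 CPM in sorted cells, against 10.3, 15.1 and 11.4 CPM in tissue, a log2 difference of 3.95 ± 0.42. The gene that was lower in sorted cells was Anln, with 36.4, 41.8 and 42.1 CPM in sorted cells, against 125, 123 and 137 CPM in tissue, a log2 difference of -1.78 ± 0.15 (adjusted p = 1.5e-06 by edgeR). Spag5 was not called, with 41.9, 33.3 and 27 CPM in sorted cells, against 25.7, 26.9 and 29.2 CPM in tissue (0.23 ± 0.24). The tables were made from different kinds of sample, digestion was used for sorted cells only, and kind of sample and handling cannot be told apart. Immediate early genes, which respond within minutes, were higher in sorted cells for 18 of 18 genes at 1 month.

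At 3 months the difference was smaller. Sorted cells were called higher for 22 genes and lower for 2, where 22.5% and 28.2% of all genes tested were called in these directions, and the median log2 difference was 0.81 (1.75-fold). The share of the 43 called higher was thus nearer to that of all genes than at 1 month. Mki67 had 61.8 and 37.5 CPM in sorted cells, against 39.5, 10.4 and 33.9 CPM in tissue, a log2 difference of 0.67 ± 0.41 (adjusted p = 0.195 by edgeR). Top2a had 65.7 and 40.7 CPM in sorted cells, against 25, 6.16 and 14.6 CPM in tissue (1.64 ± 0.39, adjusted p = 0.00483 by edgeR). The genes lower in sorted cells were Anln (-3.07 ± 0.18) and Spag5, with 9.82 and 4.62 CPM in sorted cells, against 25.9, 27.6 and 26.8 CPM in tissue (-2.04 ± 0.29, adjusted p = 0.00013 by edgeR). The largest difference was again that of Aspm (2.51 ± 0.34). In a fit of these groups alone 14 were called higher and 2 lower, where 10866 of all genes were called, against 11801 in the main fit. Without tissue 3-month replicate 1, 31 were called higher and 2 lower, where 10736 of all genes were called.

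**Figure D4:**
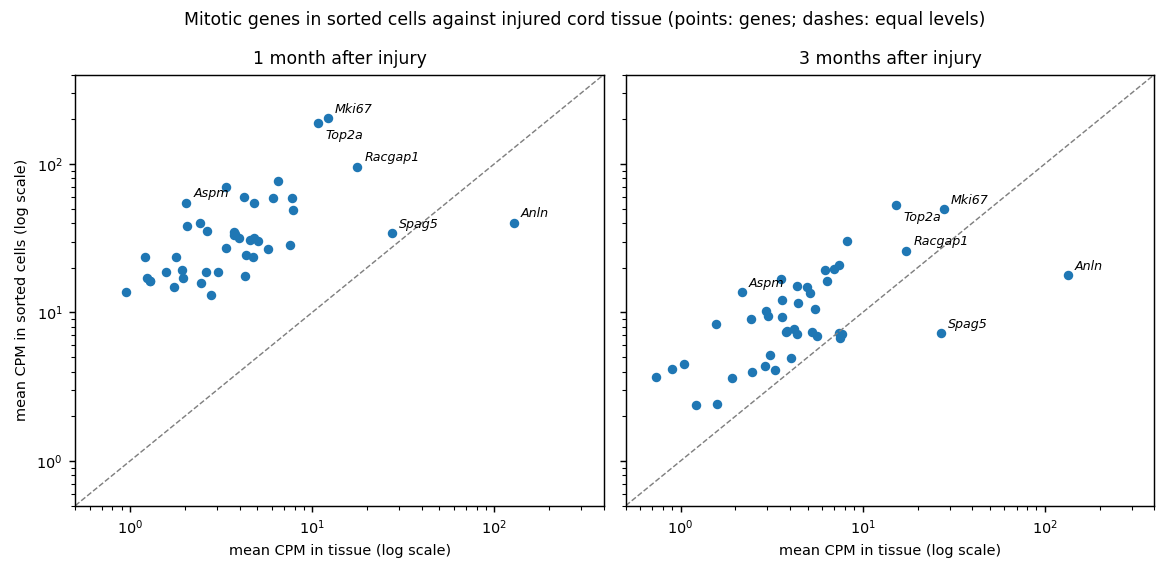
Mean CPM of each mitotic gene in sorted cells (vertical axis, log scale) against tissue (horizontal axis, log scale), at 1 month and at 3 months after injury; points are genes and the dashed line marks equal levels. At 1 month every gene but Anln lies above the line, and at 3 months the points lie closer to it, with Anln and Spag5 far below.

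The difference between the time courses was tested as an interaction, chosen after the data had been seen. For 32 of the 43 genes the change at 3 months against 1 month was called lower in sorted cells than it was in tissue, and for none higher, where 8.08% of all genes tested were called lower and 5.92% higher. The median difference of log2 changes was -2.16, beside -0.08 over all genes. Mki67 showed the largest, -3.29 ± 0.59 (adjusted p = 0.00486 by edgeR), and Nuf2 the smallest, -0.84 ± 0.29 (adjusted p = 0.0761 by edgeR). Racgap1 had the lowest p, at -1.92 ± 0.25 (adjusted p = 0.00135 by edgeR). Leaving out 1 library at a time, where at least 2 stayed in each group, gave 23 to 38 calls, all lower. In these fits 1929 to 3729 of all genes were called, against 3256 with every library.

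In the Zeb2os set of cultures no mitotic gene was called between the libraries labelled Zeb2os knockdown and their controls by edgeR, where 0.121% of all genes tested were called higher and 0.0675% lower. At an unadjusted p under 0.05, 29 of the 43 were lower and none higher, against 6.72% and 4.97% of all genes. DESeq2 called 11 lower at an adjusted p under 0.05, where it called 539 genes in all, against 39 by edgeR. The 43 had a median log2 change of -0.65 (0.64-fold), beside -0.01 over all genes. Summed over the 43, libraries held 1490 and 1520 CPM in the libraries labelled knockdown, against 2140 and 2170 CPM in their controls. In 35 genes both libraries labelled knockdown lay below both controls, as for 23.4% of all genes.

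Mki67 had 58.9 and 57.5 CPM in the libraries labelled knockdown, against 97.7 and 116 CPM in their controls (-0.88 ± 0.21, adjusted p = 0.154 by edgeR). Cenpf had 19.6 and 21.1 CPM in the libraries labelled knockdown, against 38.8 and 63.8 CPM in their controls, the largest log2 difference at -1.34 ± 0.26 (adjusted p = 0.0883 by edgeR). Plk1 had 30.8 and 34.1 CPM in the libraries labelled knockdown, against 58 and 57.3 CPM in their controls, and Racgap1 had 44.3 and 50.8 CPM in the libraries labelled knockdown, against 81 and 76.4 CPM in their controls. In these 4 genes the groups do not overlap. Genes with no such shift were Cdk1, with 102 and 104 CPM in the libraries labelled knockdown, against 130 and 82.6 CPM in their controls, and Cdc20, with 74 and 65.6 CPM in the libraries labelled knockdown, against 74.5 and 63.5 CPM in their controls. Aurka, Birc5, Ube2c, Kifc1 and Anln, in this order, had log2 differences of -0.02 ± 0.21, 0.01 ± 0.29, -0.20 ± 0.26, 0.06 ± 0.21 and -0.15 ± 0.21. In control replicate 1 the levels of Cdk1, Birc5, Ube2c and Cdca3 were above those of replicate 2, while those of Mki67, Top2a and Cenpf were below. Leaving out a control leaves 1 control library, so only the median log2 change of the 43 is given. It was -0.66 without control replicate 1 and -0.57 without control replicate 2, against -0.65 with every library. Marker lists differed between the same libraries. The summed level of astrocyte markers, given above, was lower in both libraries labelled knockdown than in both controls, and 1 of the 14 genes was called lower and none higher. Gfap, the astrocyte filament gene, had 194 and 160 CPM in the libraries labelled knockdown, against 519 and 517 CPM in their controls (-1.55 ± 0.23, adjusted p = 0.0429 by edgeR). The sum of fibroblast and mural markers, also given above, was higher in both libraries labelled knockdown, with none of the 12 genes tested called. The 15 endothelial markers summed to 206 CPM in both libraries labelled knockdown, against 115 to 142 CPM in their controls, with 1 of 12 tested called higher, and Cldn5, Tie1 and Erg were at 0 in both libraries labelled knockdown. The 18 immediate early genes summed to 1200 to 1270 CPM in the libraries labelled knockdown, against 765 to 934 CPM in their controls, with 2 called higher. The part of these differences in the mitotic values was not tested.

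**Figure D5:**
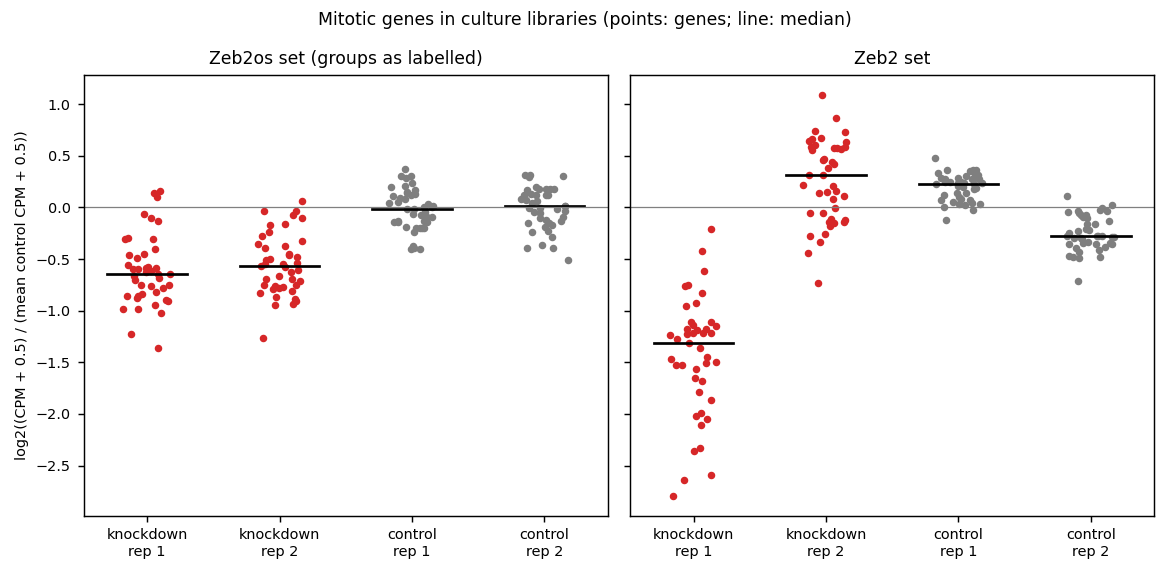
Level of each mitotic gene in each culture library over the mean of the controls of its set, as log2((CPM + 0.5) / (mean control CPM + 0.5)) (vertical axis), with knockdown libraries left of controls (horizontal axis); points are genes and lines medians. Both libraries labelled Zeb2os knockdown lie mostly below their controls, while of the Zeb2 knockdown libraries replicate 1 lies below and replicate 2 does not.

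In Zeb2 knockdown cultures no mitotic gene was called by edgeR, where 0.0% of all genes tested were called, and none of the 43 had an unadjusted p under 0.05, against 2.33% of all genes lower and 1.55% higher. DESeq2 called 0 and had 1 gene at an unadjusted p under 0.05. The knockdown libraries went apart: they held 269 and 881 CPM of the 43 in sum, against 861 and 641 CPM in control. Mki67 had 12.4 and 23 CPM in Zeb2 knockdown, against 44 and 19 CPM in control. Ccnb1 had 8.8 and 33.9 CPM in Zeb2 knockdown, against 24.9 and 17.2 CPM in control, and Plk1 had 3.92 and 25.4 CPM in Zeb2 knockdown, against 22.1 and 15 CPM in control. In each, replicate 1 was the lowest of the 4 libraries and replicate 2 lay within or above the controls. Anln had the lowest log2 change, -1.44 ± 0.67 (adjusted p = 0.999 by edgeR), with 7.77 and 34 CPM in Zeb2 knockdown, against 62.8 and 50.7 CPM in control, and both knockdown libraries lay below both controls. Birc5 had the highest, 0.29 ± 0.92. The median log2 change was -1.35 without knockdown replicate 2 and 0.34 without knockdown replicate 1, against -0.29 with every library. Each of these fits leaves 1 knockdown library, so no calls are given. Zeb2 itself was low in both knockdown libraries.

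The effects of the 2 knockdown sets, each against its own controls, were compared in an interaction that was also chosen after the data had been seen. None of the 43 genes was called (edgeR, 0.0% of all genes), none had an unadjusted p under 0.05 (2.77% of all genes lower and 4.28% higher), DESeq2 called 0, and the median difference of log2 changes, Zeb2 minus Zeb2os, was 0.27. The widest were those of Anln (-1.26 ± 0.74) and Ccnb1 (0.92 ± 0.73). Standard errors ran from 0.44 for Spag5 to 1.17 for Ccnb2. The median difference was -0.78 without Zeb2 knockdown replicate 2 and 0.82 without Zeb2 knockdown replicate 1.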

How the data were processed

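The authors deposited raw counts of reads for each gene, in 4 tables. The submitters' processing notes name build mm10 and the tools TopHat2 2.1.0, Cufflinks 2.2.1, FastQC and DESeq2, without their roles. How reads were counted, on which annotation and with which strand setting, is not given in the sources used here. Libraries were made with a kit that marks strand, per the labels' protocols. Coordinates and exonic lengths come from GENCODE on GRCm38, and 14 of the 43 genes share exonic bases with another gene.

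Low genes were dropped by filterByExpr (min.count 10), libraries were scaled by TMM, and groups were compared with the quasi-likelihood F test of edgeR 4.0.16 (R 4.3.3), with Benjamini-Hochberg adjusted p over all genes tested. Each table was fitted alone, except sorted cells against tissue and the 2 knockdown sets against each other. CPM values use the scaled totals. SE is the standard error of a log2 change, taken as its absolute value over the square root of its F statistic. edgeR's common coefficient of variation was 0.63 for sorted cells, 0.137 for tissue, 0.321 for Zeb2os cultures and 0.399 for Zeb2 cultures. Sorted cells and tissue share a fit (0.34, between those of the 2 kinds), with 1 spread per gene for both.

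Alternatives were DESeq2 1.42.0, its size factors, no filter, a replicate block, the compared groups alone and leaving out each library. The members, roles and other lists were chosen with earlier results of these data known. Named in full were set members of each role, those with the highest and lowest change, those called against the rest or not called, the 6 genes most like the members' mean, and the 3 most changed genes called at 7 days of each division list. The 33 identifiers found only in the Zeb2 table (0.00161% of its counts) were not used. The tests were also run on simulated counts, with a condition set only on the size of the large changes recovered and none on calls.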

Additional observations from a re-analysis of the deposited data

Results flagged for a closer look

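The 3-month change against 1 month differed between sorted cells and tissue for 32 of the 43 mitotic genes by an interaction test (edgeR adjusted p under 0.05). All were lower in sorted cells (median difference -2.16), where 8.08% of all genes tested were called lower. Within sorted cells the change against sham also differed between times. At 1 month 13 genes were lower than at 7 days (median log2 change -0.91), where 1.09% of all genes tested were called lower. Leaving out 1 library at a time gave 0 to 4 calls in place of the 13. At 3 months 43 were lower than at 7 days (median -2.69), where 3.52% of all genes tested were called lower. Also at 3 months, 28 were lower than at 1 month (median -1.91), where 0.284% of all genes tested were called lower. Leaving out a 1-month library gave 8 to 12 calls in place of the 28, where 13 to 21 of all genes were called. Each of the main counts here comes from a direct test of the difference between the times, and the explanation of none was tested. In groups of fewer than 4 libraries no single library was tested for standing apart.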

How the results depend on the processing

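Of the counts of called genes recomputed under an alternative, 107 stayed within 1.5 times the count reported and 30 moved. Genes lower at 1 month than at 7 days numbered 23 by DESeq2, 30 with no filter and 38 in a fit of both groups alone, against 13. Over all genes these settings called 1742, 1406 and 3560, against 633. At 3 months against sham, 3 were called by DESeq2, 6 (1 higher, 5 lower) with no filter and 3 with the replicate block, against 1. Over all genes they called 4595, 3698 and 2710, against 2844. In the Zeb2os set, 11 were called by DESeq2, 12 with no filter and 9 with the block, all lower, against 0. Over all genes they called 539, 625 and 554, against 39. Deviations of same-numbered libraries had correlations of -0.17 to 0.12 in sorted cells, -0.31 to -0.02 in tissue and 0.0 in Zeb2os cultures. In Zeb2 cultures, which have 2 pairs, they were 0.42, and the block gave a median log2 change of -0.58 and 0 calls, against -0.29 and 0 calls. Nothing in the labels pairs these libraries, so the numbers were not taken to pair them, and the block moved no other count by over 1.5 times. Leaving out 1 library gave 42 to 43 calls at 7 days and 34 to 41 at 1 month against sham, 1 to 5 at 3 months against sham, 0 to 4 at 1 month and 37 to 41 at 3 months against 7 days, 2 to 15 at 3 months against 1 month, 0 to 4 in tissue, 0 to 26 in the Zeb2os set, 0 to 14 in the Zeb2 set, 42 to 42 and 19 to 33 for sorted cells against tissue at 1 month and 3 months, 23 to 38 for the interaction of time and kind, and 0 to 8 for that of the knockdown sets. Of the values of single genes, 5330 kept their side of the threshold, 243 passed it, 310 lost it and 8 turned round past it. These were Plk1 in tissue (-0.51 without 3-month replicate 1, 0.27 without 3-month replicate 2) and, leaving out 1 Zeb2 knockdown library, Birc5 (-2.05 without replicate 2, 1.15 without replicate 1) and Ube2c (-2.22 and 0.89) in the Zeb2 set, and Ccnb2 (-2.48 and 1.43), Kif2c (-2.35 and 1.20), Birc5 (-1.99 and 1.16), Ube2c (-1.95 and 1.12) and Nuf2 (-1.68 and 1.06) in the interaction of the sets. All but that of Plk1 rest on fits that leave 1 knockdown library, so only their change of sign is read. The tallies of kept, passed and lost values, and of counts that moved, include such fits too. The cause of the changes of sign was not tested. The wide spread of the sorted libraries and the 2 libraries per culture group limit what changes can be called.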
